A study of Homo sapiens with 4 samples.

Results

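The 10 glutathione S-transferase genes examined were GSTP1, GSTO1, GSTK1, GSTM2, GSTM3, GSTM4, GSTA4, MGST1, MGST2 and MGST3. They bear the family name but are not the whole family, and the list was made with earlier results of these data known. Each matched 1 of the 61541 genes of the count table by its Ensembl identifier. RNA sequencing was carried out on MDA-MB-231, an established human triple-negative breast cancer line. The control group (2 libraries) was parental cells passaged in ordinary medium with no treatment, and the cadmium group (2 libraries) was cells passaged in medium with cadmium sulfate that was raised to 10 µM and kept there over further passages. The comparison asks which transferase genes changed in cells that had adapted to this metal. Libraries carry the numbers of their columns in the count table, control 2, control 3, cadmium 1 and cadmium 2. The labels call the controls biological replicates, whereas the cadmium libraries are labelled only as replicates. The cadmium cells were a selected culture of the same line, and nothing in the labels says that the cadmium replicates came from separate selections. The p-values therefore measure only the spread between these libraries, which in the cadmium pair may be technical.

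Glutathione S-transferases join the thiol of glutathione to reactive electrophiles, and the conjugates are then pumped out of the cell and broken down. The family has soluble enzymes of several classes (alpha, mu, omega, pi and others), a kappa enzyme of mitochondria and peroxisomes, and membrane-bound microsomal enzymes of an unrelated fold. Glutathione itself binds cadmium through its thiol, and several family members are known targets of the oxidative stress factor NRF2.

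Total counts ranged from 51934729 to 61916007 reads per library. The control libraries differed from each other far more than the cadmium libraries did. Of the 12924 genes that averaged at least 100 normalized counts, 14.2% were more than 2-fold apart in the controls, against 0.317% in the cadmium pair. All 5 genes fixed as high in this line (VIM, CD44, AXL, MSN and CAV1) were present at 378 to 1756 CPM (counts scaled to the library total) in every library. The keratin KRT5 had no reads, while the receptor genes ESR1 and PGR stayed at or below 0.530 CPM. The other 3 genes fixed as low were detected, ERBB2 at 83.6 to 115.6 CPM, EPCAM at 41.1 in control 2 and 12.0 to 14.1 elsewhere, and CDH1 at 11.1 in control 3 and 1.83 to 3.09 elsewhere. The summed level of 9 luminal breast markers was 296 CPM in control 2, 629 in control 3 and 504 to 512 in the cadmium libraries. KRT19 alone made up 267 of the sum in control 2, 445 in control 3 and 421 to 429 in the cadmium libraries. SPDEF was at 3.60 in control 2 and 118 in control 3. AGR2 (1.76 and 31.2), TFF1 (0.0969 and 7.03) and ERBB3 (5.72 and 17.2) were also higher in control 3. GATA3 went the other way, at 16.9 and 10.9. So did ESR1, PGR and FOXA1, which stayed at or below 0.323 in both controls. The leukocyte markers PTPRC, CD3E and LYZ summed to at most 3.16 CPM, with CD3E at 0, and the 3 endothelial markers to between 3.21 and 15.7. Most of the endothelial sum was PECAM1, at 2.73 in control 2 and 11.5 to 15.2 elsewhere, while CDH5 and VWF stayed at or below 1.11. The part of these differences in the values of the transferases was not tested. MT2A, the metallothionein used as the reference for cadmium exposure, had 37772 and 20700 normalized counts in the controls and rose to 112331 and 130956 under cadmium.

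None of the 10 transferase genes was called by DESeq2 at an adjusted p-value below 0.1, against 1.14% of all 19816 genes tested. The edgeR quasi-likelihood test and limma-voom also called 0 of the 10, with lowest adjusted p-values of 0.620 and 0.669, but these tools called 0 of all 19241 genes, of which 1506 and 1423 had an unadjusted p-value below 0.05. An unadjusted p-value below 0.05 was found for 2 of the 10 with each of these 3 tools, against 6.92% of all genes with DESeq2. These were GSTK1 and GSTM4, and both were lower in the cadmium libraries. In 8 of the 10 genes the log2 fold change of cadmium over control was below 0, and the median was -0.31. Over the 18871 genes averaging at least 10 normalized counts the median was -0.03, and 47.0% of them were above 0. Both values of the 10 genes rested on control 2, without which 5 of the 10 were below 0 and their median was -0.0052. A bulk library cannot tell less RNA per cell from fewer cells that express a gene, which holds for every value here.

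Both cadmium libraries lay below both controls for 5 of the 10 genes (GSTK1, GSTM2, GSTM4, GSTA4 and MGST2), a pattern seen in 19.9% of all genes tested. They lay above both controls for 1 gene, MGST1, a pattern seen in 20.3% of all genes. The gap between the nearest libraries of the groups was 1.56-fold for GSTK1 and 1.37-fold for GSTM4. It was only 1.05-fold for GSTM2, 1.07-fold for MGST2, 1.08-fold for GSTA4 and 1.12-fold for MGST1. The count depended on the controls. Against control 3 alone 5 genes were lower in both cadmium libraries and 4 were higher, where 39.4% and 40.4% of all genes were. Against control 2 alone 9 were lower and 1 was higher, where 43.0% and 43.3% of all genes were.

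**Figure D1:**
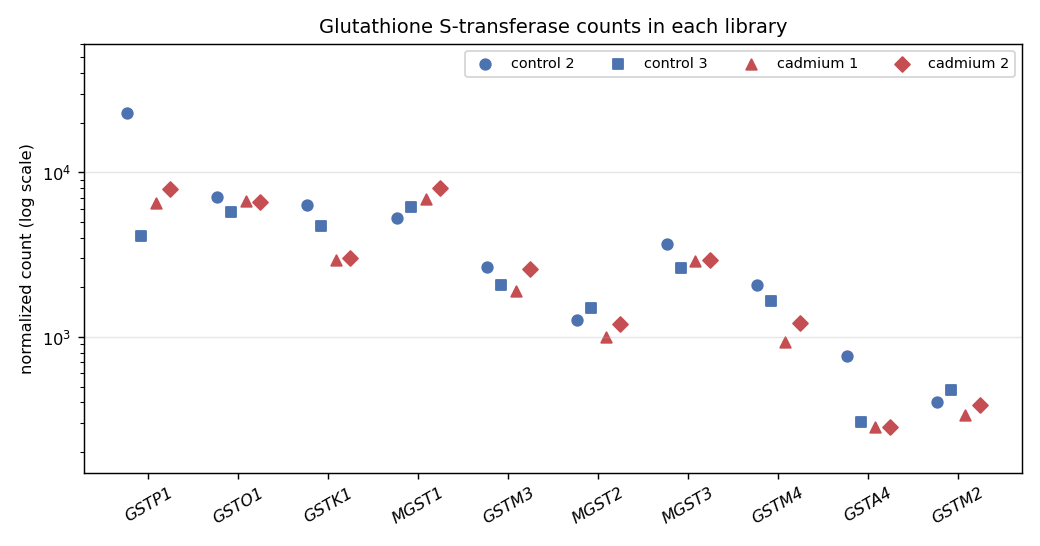
Normalized counts (log axis) of the 10 genes in each library, ordered by level per length, with blue circles and squares for control 2 and control 3 and red triangles and diamonds for cadmium 1 and cadmium 2. GSTP1 ranges from 4080 in control 3 to 22854 in control 2 with the cadmium libraries between them, while the cadmium libraries of GSTK1 and GSTM4 lie below both controls.

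GSTP1 encodes the pi class enzyme, the soluble transferase best known for its high level in many tumours and for binding and restraining the kinase JNK. The gene (ENSG00000084207, chromosome 11, 67583742 to 67586656, hg38, plus strand) had 22854 normalized counts in control 2 and 4080 in control 3, beside 6537 in cadmium 1 and 7942 in cadmium 2. The controls thus lay on either side of the cadmium libraries, with control 2 at 5.60 times control 3. Only 2.28% of genes averaging at least 100 differed more between the controls. The DESeq2 log2 fold change was -0.90 (SE 0.63, 95% interval -2.12 to 0.33) at an adjusted p-value of 0.934. The direction rested on control 2. Without that library the log2 fold change was 0.82 (DESeq2 adjusted p-value 1.03e-06), and without control 3 it was -1.67 (adjusted p-value 1.26e-29). In such a fit the remaining control is assumed to vary as little as the cadmium pair, so that these p-values set both cadmium libraries against a single control.

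The sequence before the GSTP1 start site is shown because this gene had the largest difference between the controls among the 10. It was taken from RefSeq on GRCh38.p14 and covers 250 bases before and 50 bases after the annotated start (chr11:67583562-67583861, plus strand). Capitals mark matches on either strand to the antioxidant response element core TGACNNNGC, the AP-1 site TGANTCA and a metal response element pattern, TGCNCNC. The last is permissive, with any base at each N, and is called the metal response core below.
GSTP1: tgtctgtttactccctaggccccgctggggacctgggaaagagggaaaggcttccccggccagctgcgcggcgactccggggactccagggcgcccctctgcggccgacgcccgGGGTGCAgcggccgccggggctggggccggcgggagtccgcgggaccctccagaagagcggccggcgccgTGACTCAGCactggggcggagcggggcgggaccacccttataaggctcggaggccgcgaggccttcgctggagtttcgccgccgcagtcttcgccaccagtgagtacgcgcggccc
The antioxidant match at position -66 from the start contains the AP-1 match, since both begin with the same TGA. The metal response match, on the minus strand, is at -136. An antioxidant core was found in 13.3% of the 35116 promoters searched, an AP-1 site in 7.71% and a metal response core in 55.9%, so that the last of these is a common match. The window holds 36 CpG dinucleotides, against a median of 14 over all promoters.

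GSTO1 encodes the omega class enzyme, which uses an active-site cysteine and reduces dehydroascorbate and methylated arsenic compounds. The gene (ENSG00000148834, chromosome 10, 104235356 to 104267459, plus strand) had normalized counts of 7058 and 5743 in the controls and 6731 and 6567 in the cadmium libraries. Both cadmium libraries lay between the controls. The log2 fold change was 0.05 (SE 0.26, 95% interval -0.46 to 0.57). Its level per length was the steadiest of the 10 genes, with a highest library at 1.18 times the lowest. The RefSeq window of this gene held 2 antioxidant cores, at -226 and -161, and 2 metal response cores.

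GSTK1 encodes the kappa enzyme of mitochondria and peroxisomes. The gene (ENSG00000197448, chromosome 7, 143244093 to 143270854, plus strand) had normalized counts of 6361 and 4733 in the controls and 2933 and 3028 in the cadmium libraries. Both cadmium libraries were close to each other and well below the lower control. The group means were 5547 ± 1152 in control and 2981 ± 67.3 in cadmium cells (SD, n = 2 each), which is 1.86-fold lower. The DESeq2 log2 fold change was -0.90 (SE 0.28, 95% interval -1.45 to -0.34), the unadjusted p-value 0.00149 and the adjusted p-value 0.120. It was therefore not called, although it came nearest of the 10 genes. When genes were required to have at least 10 counts in 2 libraries, the DESeq2 adjusted p-value was 0.0739. Leaving out control 2 gave -0.67 on the log2 scale, and leaving out control 3 gave -1.10.

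The chromosomal surroundings of GSTK1 had values in the same direction. The 40 expressed genes nearest to GSTK1, between 139133744 and 149497817 on chromosome 7, showed a median of -0.32 on the log2 scale, and only 3 of them had a lower value than GSTK1. Relative to that median GSTK1 was at -0.57. The part of the surroundings in the value of this gene was not tested. The RefSeq window is shown because GSTK1 had the lowest p-value of the family (chr7:143263191-143263490, plus strand, capitals as above).
GSTK1: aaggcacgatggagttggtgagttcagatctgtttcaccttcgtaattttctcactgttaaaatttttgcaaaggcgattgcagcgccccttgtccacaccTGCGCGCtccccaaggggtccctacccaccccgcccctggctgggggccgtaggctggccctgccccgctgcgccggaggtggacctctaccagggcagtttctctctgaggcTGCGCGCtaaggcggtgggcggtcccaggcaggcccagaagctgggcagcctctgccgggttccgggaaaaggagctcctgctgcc
Both matches, at -149 and -36, are to the metal response core, and neither an antioxidant core nor an AP-1 site is in this window.

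The mu class genes GSTM4, GSTM2 and GSTM3 stand together on chromosome 1. GSTM4 and GSTM2 encode close relatives of GSTM1, and GSTM3 is a more distant member on the opposite strand. GSTM4 (ENSG00000168765, 109656099 to 109674836, plus strand) had normalized counts of 2078 and 1657 in the controls and 933 and 1210 in the cadmium libraries. Both cadmium libraries were below both controls. The group means were 1867 ± 298 and 1071 ± 197 (SD, n = 2 each), with a DESeq2 log2 fold change of -0.80 (SE 0.30, 95% interval -1.40 to -0.21), unadjusted p-value 0.00826 and adjusted p-value 0.323. The value stayed below 0 with each library left out, between -1.01 and -0.63. Its 40 expressed neighbours had a median of -0.08, and only 2 of them were lower than GSTM4.

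GSTM2 (ENSG00000213366, 109668022 to 109709551, plus strand) was the least abundant of the 10 genes per kb of merged exons. Its normalized counts were 404 and 474 in the controls and 337 and 385 under cadmium, which gave a log2 fold change of -0.28 (SE 0.32). GSTM3 (ENSG00000134202, 109733932 to 109741038, minus strand) had 2672 and 2072 in the controls and 1892 and 2567 in the cadmium libraries. The GSTM3 groups overlapped, and the log2 fold change was -0.09 with a 95% interval of -0.70 to 0.52. The 3 mu genes thus did not share a single pattern, with GSTM4 lower, GSTM2 slightly lower and GSTM3 interleaved, and the difference between them was not tested.

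Some mu genes share sequence at the length of the reads. The coding sequences of GSTM2 and GSTM4, 654 bases each, were identical at 89.1% of positions, and those of GSTM1 and GSTM4 at 92.2%. Of the windows of 75 bases in the canonical GSTM2 transcript, 40.8% also occurred without mismatch in the transcripts of another gene, with 9.39% for GSTM4, 0.812% for GSTO1 and 0 for the other 7 genes. The libraries were sequenced as pairs of 150-base reads, and with windows of 150 bases the share was 32.4% for GSTM2, all of it with GSTM1, and 0 for GSTM4 and the other 8 genes. The longest coding stretch shared by GSTM2 and GSTM4 is shown to illustrate how alike these coding sequences are, and it is shorter than a read. It spans coding bases 121 to 198 of both, from the GENCODE transcripts (5′ to 3′).
GSTM2 and GSTM4: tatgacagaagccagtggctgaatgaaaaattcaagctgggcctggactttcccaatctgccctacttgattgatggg
Within the coding sequences, the longest identical stretch of GSTM1 and GSTM2 was 114 bases, whereas that of GSTM3 and GSTM4 was 23. The windows of 150 bases were counted over whole transcripts, so GSTM1 and GSTM2 also share longer stretches. The counting dropped reads that mapped to several places or to several genes, so that part of the GSTM2 reads may be missing from its count. Part of the exons also overlap other genes, 7.12% of GSTM2 with GSTM1 and GSTM4, 4.25% of GSTM3 with a gene on the opposite strand and 7.94% of MGST2 with MAML3 on the opposite strand, and strand was not used in counting.

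The GSTM4 window is shown as that of the other gene with an unadjusted p-value below 0.05 (chr1:109655849-109656148, plus strand, capitals as above).
GSTM4: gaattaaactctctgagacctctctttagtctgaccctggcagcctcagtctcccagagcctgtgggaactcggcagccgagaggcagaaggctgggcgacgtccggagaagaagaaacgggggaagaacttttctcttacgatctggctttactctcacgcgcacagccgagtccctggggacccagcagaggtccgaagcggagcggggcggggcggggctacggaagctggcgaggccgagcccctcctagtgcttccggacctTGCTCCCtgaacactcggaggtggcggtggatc
It held 1 match to the permissive metal response core, at 17, and no antioxidant core or AP-1 site.

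GSTA4 encodes the alpha class enzyme with high activity toward 4-hydroxynonenal, an aldehyde made by lipid peroxidation. The gene (ENSG00000170899, chromosome 6, 52977948 to 52995304, minus strand) had normalized counts of 763 in control 2, 305 in control 3 and 283 and 282 in the cadmium libraries. Control 2 stood alone, at 2.50 times control 3, and the other 3 libraries were nearly level. The log2 fold change was -0.92 (SE 0.48, 95% interval -1.86 to 0.02), and the adjusted p-value in DESeq2 was 0.739. It was -0.11 without control 2 and -1.44 without control 3. The 40 expressed neighbours of GSTA4 lay between 45328157 and 70561174, a wider span than around GSTP1 or GSTK1. Their median was 0.36, opposite in sign, and 1 of them was lower than GSTA4. The window of this gene is shown as that of the other member with more than 2-fold between the controls (chr6:52995235-52995534, minus strand, capitals as above).
GSTA4: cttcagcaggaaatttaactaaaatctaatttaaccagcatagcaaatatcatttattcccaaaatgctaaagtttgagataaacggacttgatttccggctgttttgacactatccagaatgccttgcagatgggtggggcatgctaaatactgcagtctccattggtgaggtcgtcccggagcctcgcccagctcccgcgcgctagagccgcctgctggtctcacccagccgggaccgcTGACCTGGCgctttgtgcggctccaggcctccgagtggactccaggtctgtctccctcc
The single match is an antioxidant core at -9.

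The microsomal genes encode small membrane proteins. MGST1 encodes the abundant enzyme of the endoplasmic reticulum and outer mitochondrial membrane, which also reduces lipid hydroperoxides. The gene (ENSG00000008394, chromosome 12, 16347142 to 16609259, plus strand) had normalized counts of 5275 and 6113 in the controls and 6843 and 8045 in the cadmium libraries. It was the only one of the 10 genes with both cadmium libraries above both controls. The log2 fold change was 0.39 (SE 0.26, 95% interval -0.13 to 0.90), and the adjusted p-value in DESeq2 was 0.920. Its sign held with each library left out, between 0.26 and 0.49. The 40 neighbours had a median of 0.22, so that MGST1 exceeded its surroundings by 0.17 on the log2 scale. RefSeq gives 3 start sites for this gene, and an antioxidant core was found in 1 of these windows, at 30. The windows of start sites 1 and 2 overlap and hold the same metal response core, at 11 and -122 from their starts.

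MGST2, which also makes leukotriene C4, and MGST3, a related peroxidase, showed smaller differences. MGST2 (ENSG00000085871, chromosome 4, 139665768 to 139740745, plus strand) had normalized counts of 1271 and 1497 in the controls and 1003 and 1190 under cadmium, which gave a log2 fold change of -0.34 (SE 0.28). MGST3 (ENSG00000143198, chromosome 1, 165631213 to 165661796, plus strand) had 3686 and 2624 in the controls and 2890 and 2928 in the cadmium libraries. The cadmium libraries of MGST3 were nearly equal and lay between those of the controls, at a log2 fold change of -0.12 (SE 0.29). The 3 microsomal genes therefore gave 1 higher, 1 lower and 1 interleaved pattern, none of them called.

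**Figure D2:**
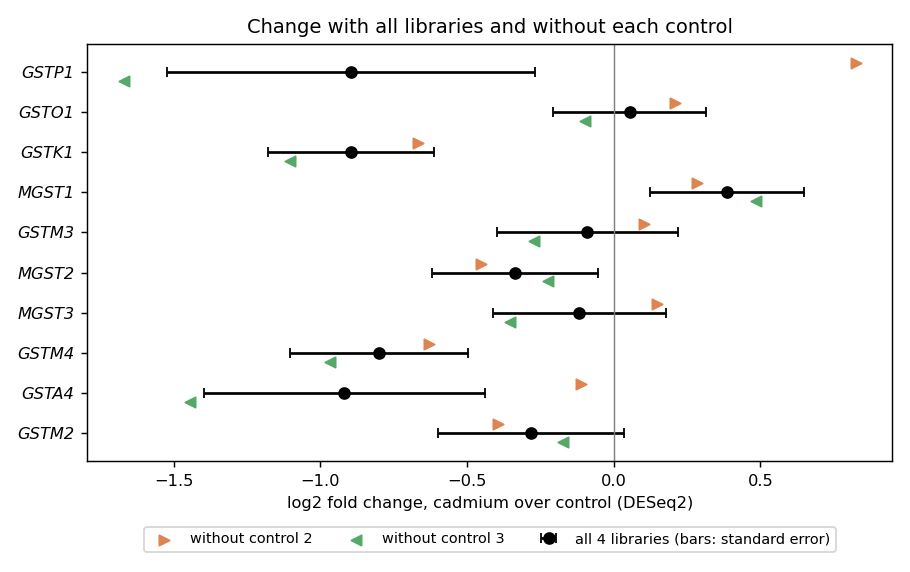
DESeq2 log2 fold change of cadmium over control for the 10 genes, with black points and standard error bars for all 4 libraries, orange triangles without control 2 and green triangles without control 3. GSTP1 moves from -1.67 to 0.82 with the control used, whereas GSTK1 and GSTM4 stay at -0.63 or below and MGST1 stays above 0.

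Levels can be compared between genes only per length, as RPKM (reads scaled by library total and by kb of merged exons). GSTP1 had the highest mean, 102.8, and the widest range, 41.9 to 221. GSTO1 followed with 68.7 (61.5 to 72.6), and these ranges overlapped. GSTK1 at 17.9 (12.7 to 25.8) and MGST1 at 15.8 (12.1 to 19.3) overlapped with each other but not with GSTO1 or GSTM3. Then came GSTM3 at 8.61, MGST2 at 6.97, MGST3 at 6.69, GSTM4 at 4.78 and GSTA4 at 3.42, in which each gene overlapped its neighbour in the order. GSTM2 at 0.782 (0.675 to 0.942) stood below them all. Between GSTK1 and MGST1 the order turned with the group, since GSTK1 was above MGST1 in both controls and below it in both cadmium libraries. Merged exons are longer than most transcripts, so the order depends on the length used. With the length of the canonical transcript MGST1 averaged 126.9 and GSTK1 73.2, and GSTK1 was above MGST1 in control 2 alone. On that length MGST3, at 46.5, was above GSTM3, at 9.92. GSTM2, at 6.12, was then no longer the lowest, since GSTA4 averaged 5.80.

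Summed over the 10 genes, the level per length was 368 in control 2 and 170.0 in control 3, beside 195 in cadmium 1 and 212 in cadmium 2. Control 2 was again apart from the other libraries. GSTP1 made up 60.1% of the sum in control 2 but 24.6% in control 3, and 34.6% and 38.0% in the cadmium libraries. Without GSTP1 the sums were 146.8, 128.1, 127.9 and 131.7, so that most of the difference between control 2 and the rest was in this gene. MGST1 took 3.29% and 8.75% of the sum in the controls and 8.58% and 9.11% in the cadmium libraries. The share of GSTK1 was 7.002% and 12.0% in the controls and 6.49% and 6.06% in the cadmium libraries. All these shares depend on the length used. With canonical transcript length GSTP1 made up 51.9% in control 2, 18.1% in control 3, and 26.9% and 29.3% in the cadmium libraries. On that length MGST1 was at 97.3 of a sum of 1014 in control 2 and 119.7 of 550 in control 3. It was at 134.9 of 599 in cadmium 1 and 155.6 of 655 in cadmium 2.

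**Figure D3:**
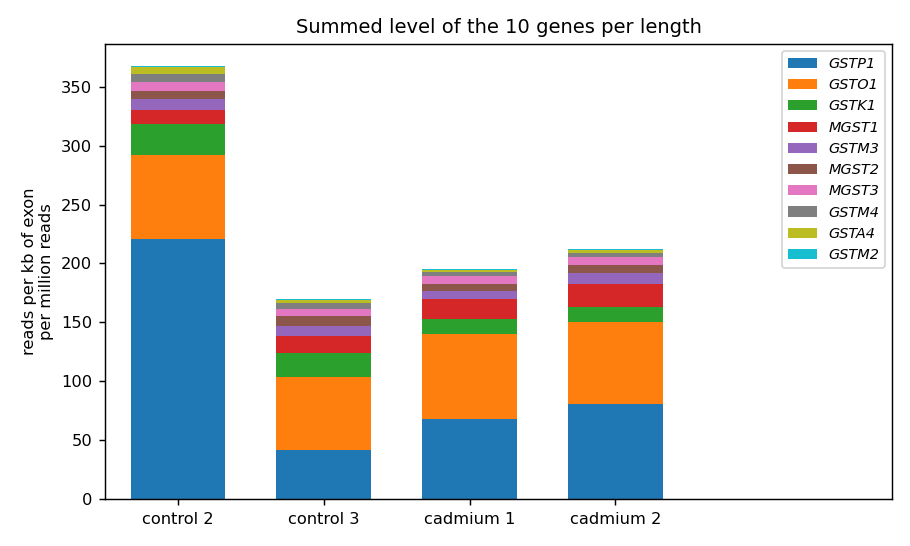
RPKM (reads scaled by library total and by kb of exon) summed over the 10 genes in each library, with each gene as a coloured segment. Control 2 reaches 368, of which GSTP1 alone accounts for 221, and the other 3 libraries lie between 170.0 and 212.

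Each gene was also set beside its 40 nearest expressed genes, 20 on either side. Around GSTP1 (66744451 to 69136316 on chromosome 11) the neighbours had a median log2 ratio of control 3 over control 2 of -0.59, in the direction of GSTP1 at -2.49, and 1 of the 40 was lower than GSTP1. Their median log2 fold change of cadmium over control was -0.47, and GSTP1 was -0.42 relative to it. GSTA4 had a control ratio of -1.32 while its neighbours had a median of -0.19. For MGST1 the neighbours were higher in control 3 by a median of 0.60, and MGST1 itself by 0.21. The medians of the remaining 7 genes ranged from -0.24 to 0.15 for the control ratio.

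**Figure D4:**
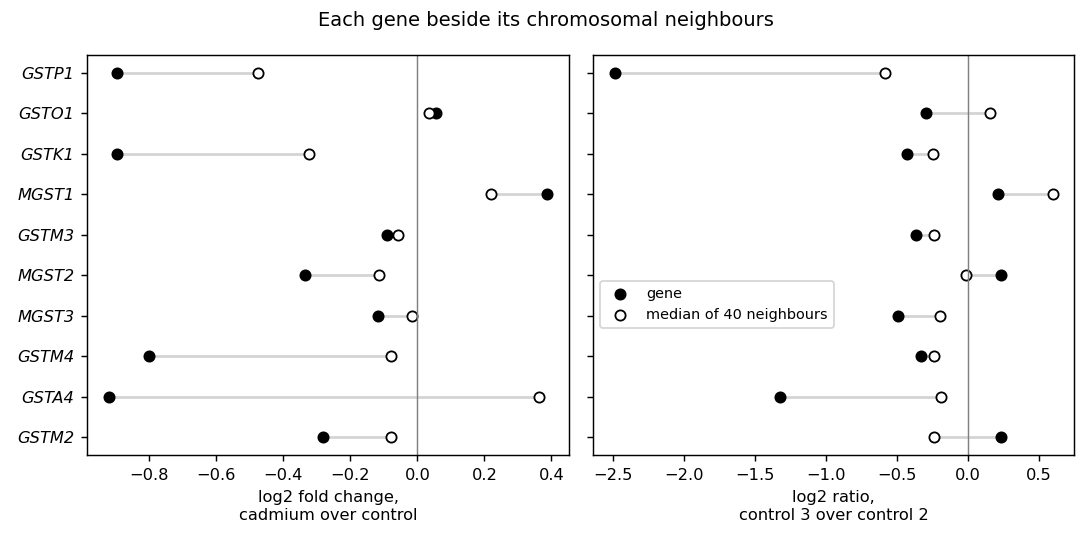
Each gene (filled points) and the median of its 40 nearest expressed genes (open points), as the log2 fold change of cadmium over control on the left and the log2 ratio of control 3 over control 2 on the right. GSTA4 lies opposite to its neighbours on the left, -0.92 against 0.36, and GSTP1 lies far below its neighbours on the right, -2.49 against -0.59.

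The other transferases and their membrane relatives gave the same absence of calls. Of 18 genes in this list 17 were in the table, 10 averaged at least 10 normalized counts, and none of these was called by DESeq2. GSTM1, another mu gene of the same cluster, had normalized counts of 881 and 692 in the controls and 496 and 520 in the cadmium libraries, with a DESeq2 log2 fold change of -0.63, an unadjusted p-value of 0.0372 and an adjusted p-value of 0.644. It was the only gene of the list with an unadjusted p-value below 0.05. Both cadmium libraries lay below both controls for GSTM1, as they did for GSTM4. PTGES, the microsomal prostaglandin E synthase, was high in control 3 alone, with 7108 against 2227 in control 2 and 3005 and 3825 in the cadmium libraries. GSTT2B, a theta gene with a near-identical copy in GSTT2, was low in control 2 alone, with 251 against 816 in control 3 and 738 and 692 in the cadmium libraries. LTC4S, the leukotriene C4 synthase gene, had only 5 to 29 reads in a library. GSTZ1, GSTCD, GSTO2, GDAP1, GSTT2 and ALOX5AP had log2 fold changes between -0.93 and 0.93, and the lowest of their DESeq2 adjusted p-values was 0.989. The alpha genes GSTA1, GSTA2, GSTA3 and GSTA5 had no reads in any library. A count of 0 allows up to 3 counts, or 0.0485 to 0.0578 CPM, and 6 counts where read pairs count as 2 mates, which covers counting error only.

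In the list of glutathione supply, SLC7A11, which imports cystine for glutathione synthesis, was the only one of 8 genes called, with a DESeq2 log2 fold change of 1.87 and adjusted p-value of 1.77e-05. The synthesis genes GCLC and GCLM were at 0.34 and 0.23 on that scale, and the list median was 0.01. Among 14 detected genes of conjugate export and breakdown none was called and the median was -0.11. The lowest unadjusted p-values there were those of ABCC2, an exporter of glutathione conjugates, at 0.0268 with normalized counts of 110 and 148 in the controls and 272 and 209 in the cadmium libraries, and of CHAC1, which breaks down glutathione, at 0.0726 with 201 and 1119 in the controls and 3265 and 2035 under cadmium. Of 12 regulators none was called, and the median was -0.01. NFE2L2, which encodes NRF2, had a log2 fold change of -0.12, its inhibitor KEAP1 one of -0.13 and MTF1 one of -0.28, each with the cadmium libraries between the controls. BACH1, a repressor of antioxidant genes, had the lowest unadjusted p-value of the regulators, 0.0374, with a log2 fold change of 0.65, followed by MAFK, a partner of NRF2 on DNA, with 0.186 and -0.33. In the comparison list of partner enzymes 2 of 14 detected genes were called higher, the heme oxygenase gene HMOX1 with a log2 fold change of 2.48 (DESeq2 adjusted p-value 1.58e-08) and the aldo-keto reductase gene AKR1C3 with one of 1.16 (adjusted p-value 0.0361), and the median was 0.27. Each of the 3 called genes had both cadmium libraries above both controls, a pattern seen in 20.3% of all genes tested. The calls came from the same libraries, so this pattern adds no separate support. Neither edgeR nor limma-voom called any of the 3 at an adjusted p-value below 0.1.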

How the data were processed

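RNA-seq libraries of control and cadmium-resistant MDA-MB-231 cells (2 each) were analysed as deposited. The authors trimmed adaptors with bbduk, used HISAT2 for alignment (hg38) and featureCounts 2.0.1 for assignment to Ensembl genes, and deposited unnormalized read counts. The counting command set no further option, so strand was ignored, multi-mapping and multi-gene reads were dropped and mates were counted separately. Depth was 51934729 to 61916007 counts, and no per-sample column was left unused. The control columns are numbered 2 and 3, whereas the labels number the controls 1 and 2 and the header command calls the inputs A and B, so they were assigned to the group only. Symbols matched 61369 of 61541 identifiers.

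All genes were fitted by DESeq2, the tool the study names, in version 1.42.0 under R 4.3.3 (group as the only term, Wald test, two-sided, Benjamini-Hochberg adjustment, threshold 0.1). Independent filtering removed genes with a mean below 7.69. Alternatives were edgeR 4.0.16 (quasi-likelihood), limma 3.58.1 (voom), other scalings and filters, an adjusted p-value below 0.05, halved counts and leaving out each library. Control ratios used log2(normalized count + 1). On simulated data the fit recovered the size of known fold changes, and the share of changed genes that it called is not given here. More unchanged genes were called than the threshold allows for, so adjusted p-values near it are likely too small. Members and gene lists were chosen with earlier results of these data known. Named genes were the 10 members, detected genes of the other transferases, up to 4 called genes of each other list or else its 2 lowest p-values, NFE2L2, KEAP1, MTF1 and MT2A. GCLC, GCLM and the markers were named in addition, after their values were seen. The result for 1 marker gene is not reported here. Neighbours were the nearest 20 genes on each side with a mean of at least 100. Sequences came from RefSeq (9 of the 10 genes; MGST2 is not shown) and GENCODE release 44 on the same assembly. Python 3.11.15 was used for tables and plots.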

Additional observations from a re-analysis of the deposited data

How the results depend on the processing

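No paired analysis was possible because nothing in the labels pairs a control with a cadmium library. The table columns and the labels also number the controls differently. Of 110 tested comparisons of a gene of the family with an alternative, 96 kept the direction and the side of the threshold. Against the median of 40 neighbours, which has no test, 8 of 10 genes moved by less than the spread between replicates. No transferase was called except 1 (GSTK1) with a minimum of 10 counts in 2 libraries, and between 0 and 6 when a library was left out, with 3 (GSTK1, GSTM4 and GSTP1) without control 2, 6 without control 3 and 0 without either cadmium library. In those fits the lone library is assumed to vary like the other group. Over all genes DESeq2 called 225, edgeR and limma-voom 0 (1506 and 1423 genes at an unadjusted p-value below 0.05), and the fits without a library between 14 and 6189, with 2311 without control 2. The 225 divide into 119 higher and 106 lower, and with upper-quartile scaling 152 were higher and 88 lower. Over all the other lists DESeq2 called 3 genes, edgeR and limma-voom 0, and the fits without a library between 1 and 31. The cause of these differences was not tested. The log2 fold change ranged over the left-out libraries from -1.67 to 0.82 for GSTP1, -0.10 to 0.21 for GSTO1, -0.33 to 0.11 for GSTM3 and -0.35 to 0.15 for MGST3, and these ranges include the reversals. The order by level changed for 7 genes without length, for 7 with canonical transcript length (chosen after seeing the data), for 2 in control 2 or cadmium 2 alone, for 4 in control 3 alone and for 6 in cadmium 1 alone. Windows of read length, the family count and median in each fit and the counts of genes whose groups do not overlap with a library left out were also chosen after seeing the data.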

Other observations

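Pseudogenes and antisense genes of the family were nearly silent. Of 15 such genes, GSTM2P1 on chromosome 6 had 16 and 11 reads in the controls and 6 and 14 in the cadmium libraries, and the others had at most 5 reads in any library. GSTP1P1 had 4 reads in control 2 and none elsewhere, beside 24153 GSTP1 reads in that library. These genes were looked at after the values of the family had been seen.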
